A study of Mus musculus with 18 samples.

Results

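Gene expression was measured by RNA sequencing of single mouse oocytes, and the values below set metaphase II (MII) oocytes of 12-month mice given nicotinamide mononucleotide (NMN) against MII oocytes of young mice. The oocytes were chosen by their titles, 3 in each group, and make up 6 of the 18 deposited libraries. The NMN group came from 12-month C57BL/6JAusb mice that drank water with 2 g/L NMN for 4 weeks. The young group came from untreated mice of the same strain at 4 weeks of age. MII oocytes of untreated 12-month mice, called aged here, are given beside them where they help to place a value. In this contrast age and NMN differ together and cannot be told apart. Every library was made from the supernatant of 1 lysed oocyte after its nucleus had been spun down, per the labels. The labels do not say which animals the oocytes came from, so oocytes were not taken as replicates of a condition. The groups are described without tests, and SDs are between oocytes.

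An MII oocyte is a mature egg, arrested in the second meiotic division until fertilisation. It makes almost no new RNA, so its transcripts are a store built during growth, which is translated, deadenylated and degraded on a set programme. NMN is a precursor of the coenzyme NAD, which it becomes through the NMNAT enzymes, and NAD is used by redox enzymes and consumed by sirtuins and PARPs. Oocytes of older females are known for errors in chromosome segregation and for altered mitochondria, and the treatment asks whether raising NAD alters such oocytes.

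The 3 NMN oocytes are called NMN 1, NMN 2 and NMN 2-1 after their titles, and the young and aged oocytes are numbered in the same way. Titles of NMN 2-1, young 2-1 and aged 2-1 carry the batch number 2-1. NMN 1 is titled batch 1 and NMN 2 batch 2, so these may be different batches, while the titles of the other 4 oocytes give only a number. NMN 1 and NMN 2 were read as oocytes 1 and 2 of the first set, and the other reading is given among the alternatives. Library totals were 3294694, 4677522 and 3194175 counts in the NMN oocytes and 5558950, 5586857 and 4038476 counts in the young oocytes. Values are CPM, counts relative to the library total, scaled by TMM factors. They are shares of a library, so less RNA in an oocyte cannot be seen in them. Oocyte markers summed to 2873, 3883 and 19860 CPM in NMN oocytes and to 31960, 57510 and 13450 CPM in young oocytes, and 9, 10 and 11 of the 12 markers were detected in NMN oocytes and all 12 in each young oocyte. Cumulus and granulosa markers came to 14.6, 0 and 56.0 CPM in NMN oocytes, against 162, 42.1 and 307 CPM in young oocytes, and overlapped. Of these 18 markers Amh, Amhr2, Foxl2, Inhbb and Lhcgr were at 0 in all 6, while others were present, with Cyp19a1, the aromatase of granulosa cells, at 43.5 CPM in NMN 2-1 and 55.3 CPM in young 2-1, and Gja1 at 125 CPM in young 1 and 182 CPM in young 2-1. The part of such RNA in the results was not tested.

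The NMN oocytes held fewer kinds of transcript than the young ones. Genes with at least 1 count numbered 6444, 5679 and 7725 in NMN oocytes and 9106, 12636 and 13477 in young oocytes. At equal depth, with the counts outside the mitochondrial chromosome thinned to 1878212 in each library, they numbered 6413, 5381 and 7444 in NMN oocytes and 8504, 11737 and 12574 in young oocytes. The groups did not overlap on either measure, and the aged oocytes were above all NMN oocytes, with 9880, 10397 and 8353 genes at equal depth. Of the 7555 kept genes with a count in all 3 young oocytes, 3299 (43.7%) had a count in all 3 NMN oocytes, 1865 in 2 of them, 1586 in 1 and 805 (10.7%) in none. NMN 1 lacked 2716, NMN 2 lacked 3161 and NMN 2-1 lacked 1575 of the 7555, so many were missing from 1 or 2 of the NMN oocytes only. Of the 1335 genes at 50 CPM or more in every young oocyte, 0 lacked a count in all 3 NMN oocytes. A single count in 1 NMN oocyte is enough for this, so it does not show that such transcripts were retained. Some of them were close to 0, such as Gmps at 0, 0 and 2.19 CPM and Tspan14 at 0, 0 and 1.56 CPM in NMN oocytes.

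**Figure D1:**
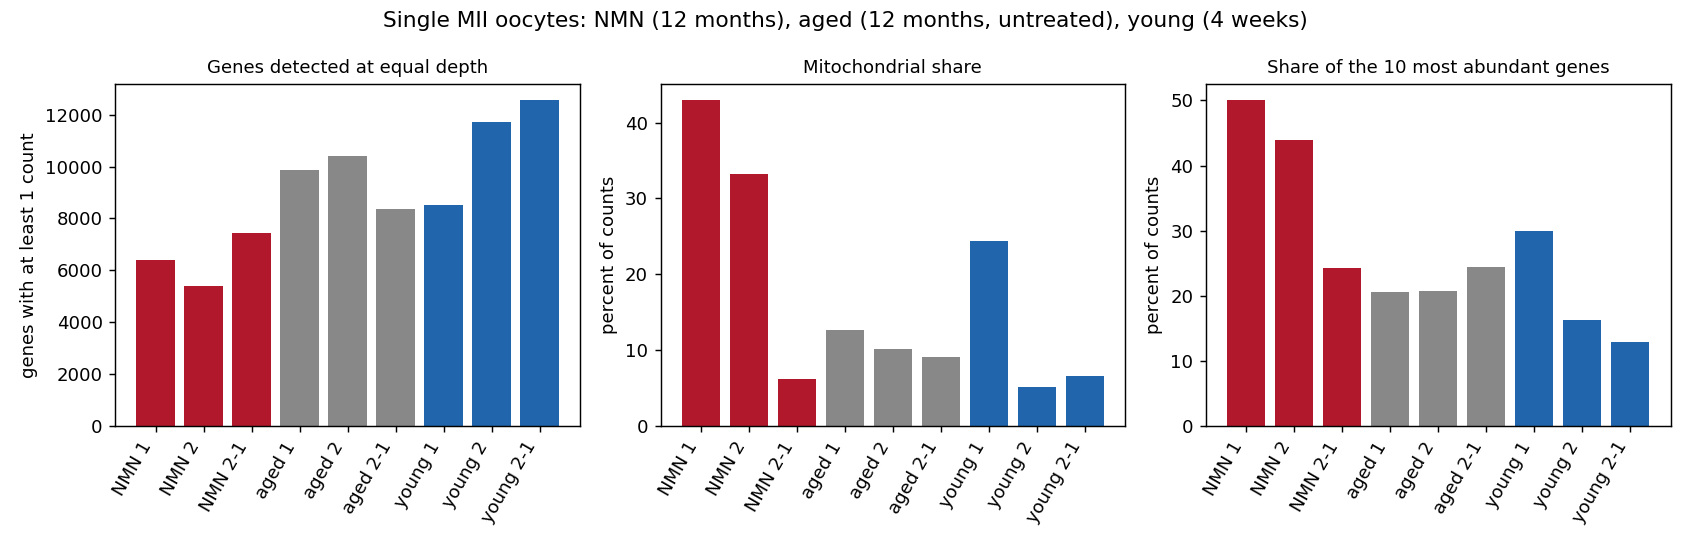
Bars give, for each MII oocyte, the genes with at least 1 count at equal depth (left), the percent of counts from the mitochondrial chromosome (middle) and the percent of counts from the 10 most abundant genes (right), with NMN oocytes in red, aged in grey and young in blue. All 3 NMN bars lie below all young bars at the left, while in the middle NMN 1 and NMN 2 stand at 43.0 and 33.2% and NMN 2-1 at 6.18%.

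A few transcripts took up much of the NMN libraries. The 10 most abundant genes held 50.1, 43.9 and 24.3% of counts in NMN oocytes and 30.0, 16.3 and 12.95% in young oocytes. Genes of the mitochondrial chromosome took 43.0, 33.2 and 6.18% of counts in NMN oocytes, against 24.4, 5.08 and 6.55% in young oocytes. The share was thus high in NMN 1, NMN 2 and young 1, and NMN 2-1 lay among the other young oocytes, so the groups overlapped.

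Most genes stood lower in the NMN oocytes, and few stood higher. The measure was a log2 ratio, NMN over young, of mean CPM with 1 CPM added to each mean, and a gene was counted as lower or higher when this ratio passed 4-fold with no overlap between the 3 and 3 oocytes. Of 12161 genes kept after a filter on low counts, 1371 were lower, which is 11.3% of all, and 52 were higher, which is 0.428%. The filter was run over 16 libraries of the series, so some kept genes, such as Prdx4, had no count in the 6 oocytes. Genes with a low young mean could not pass 4-fold lower once 1 CPM was added. The 11.3% thus includes genes that could not be counted as lower. Over all 12161 genes the median log2 ratio was -0.68 and 68.9% lay below 0. The scaling bears on this shift, which was -0.44 with DESeq2 size factors and -0.91 with library totals. Within the oocytes titled without a further batch number the median was -0.83, and within those titled 2-1, 1 oocyte a group, it was -0.70. The excess of lower genes was smaller among genes with a high mean over the 6 oocytes. That mean includes the NMN values, so a gene high in NMN oocytes enters more readily than one low in them. The choice of genes thus favours higher ones by construction, and the values below do not show an effect of abundance. Among 1397 genes at a mean of 100 CPM or more over the 6 oocytes, 83 were lower and 15 higher, and the median was -0.22. Among 133 genes at 1000 CPM or more, 6 were lower and 8 higher, and the median was 0.69.

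The 3 NMN oocytes differed from one another as well as from the young ones. Against the mean of the young oocytes, 36.5% of kept genes were at least 4-fold lower in NMN 1, 41.6% in NMN 2 and 26.6% in NMN 2-1, with medians of -1.26, -1.51 and -0.90. In aged oocytes the same share was 13.1, 8.35 and 20.5%. Across genes, Spearman's rho was 0.608, 0.568 and 0.490 among the 3 pairs of NMN oocytes, 0.661 to 0.751 between NMN 2-1 and the young oocytes, and 0.643 to 0.849 among the young oocytes, genes not being independent replicates. NMN 2-1 was therefore nearer to each young oocyte than to either other NMN oocyte. Single oocytes also moved the counts of genes, in part because the rule on overlap is easier to meet with 2 oocytes than with 3. Leaving out NMN 2-1 gave 2744 lower and 302 higher genes, and leaving out young 1, the young oocyte of high mitochondrial share, gave 2348 lower and 171 higher genes. Higher genes numbered 100.0 without NMN 1, 99 without NMN 2 and 79 without young 2.

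**Figure D2:**
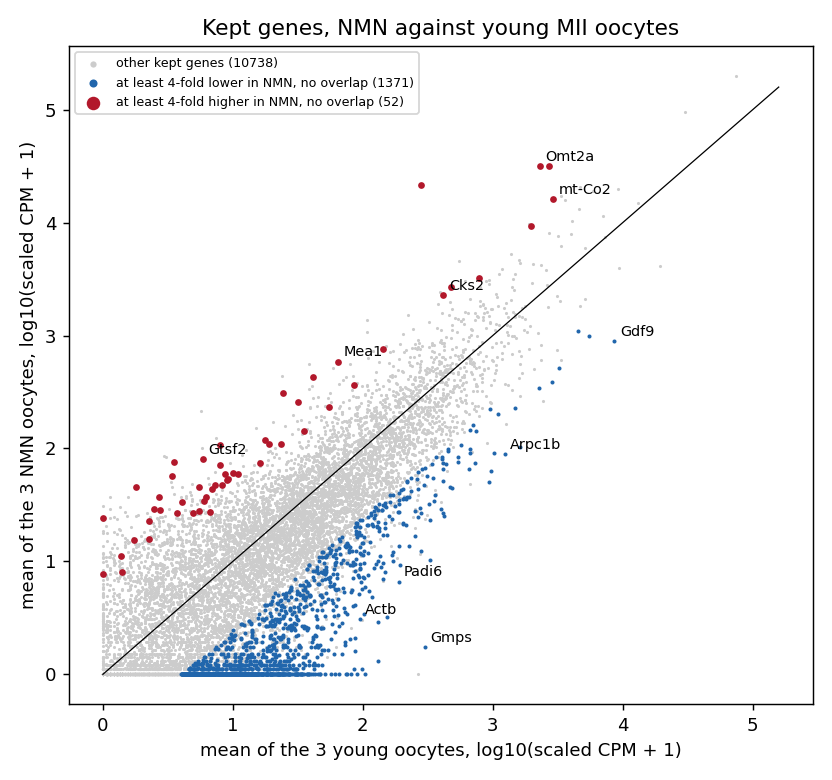
Each point is 1 of the 12161 kept genes, with its mean over the 3 NMN oocytes on the vertical axis and over the 3 young oocytes on the horizontal axis, both as log10 of scaled CPM plus 1, and the line marks equal levels. The 1371 lower genes (blue) lie under the line across all but the highest levels, while the 52 higher genes (red) include several of the most abundant, such as Omt2a.

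Among the higher genes, those with the most counts outside the mitochondrial genes and their copies were Omt2a and Omt2b, a pair of neighbouring genes annotated for oocyte maturation. Omt2a (ENSMUSG00000066463, GRCm38 chromosome 9, 78311972 to 78314796) was at 23353, 61176 and 9782 CPM in NMN oocytes, against 2637, 3513 and 772 CPM in young oocytes. Omt2b (ENSMUSG00000038750, chromosome 9, 78327589 to 78329620) was at 25728, 57948 and 11693 CPM in NMN oocytes, against 2439, 4738 and 874 CPM in young oocytes. Each NMN oocyte was above every young oocyte for both genes, with NMN 2 highest, and the ratios of means were 13.6-fold and 11.8-fold. Of the 50-base words in the longest Omt2a transcript, 29.5% also occur in Omt2b, so the split of reads between them is uncertain. In aged oocytes Omt2a was at 2504, 3036 and 6628 CPM and Omt2b at 2912, 3624 and 9714 CPM, so every NMN oocyte was also above every aged oocyte.

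The start regions of this pair are shown because the 2 genes lie close together on opposite strands and differed from young oocytes by a like amount. Each sequence runs from 250 bases before the annotated start to 50 bases after it, from RefSeq on GRCm38.p6, with chr9:78313999-78314298 on the minus strand for Omt2a and chr9:78327780-78328079 on the plus strand for Omt2b. The gene spans given above, from GENCODE, begin further upstream, so both windows lie inside those spans. The annotations thus differ on the start, and the windows may not hold the bases upstream of every transcript. Capitals mark the letters CANNTG, the E-box to which basic helix-loop-helix factors bind, and a match on one strand is a match on the other.
Omt2a: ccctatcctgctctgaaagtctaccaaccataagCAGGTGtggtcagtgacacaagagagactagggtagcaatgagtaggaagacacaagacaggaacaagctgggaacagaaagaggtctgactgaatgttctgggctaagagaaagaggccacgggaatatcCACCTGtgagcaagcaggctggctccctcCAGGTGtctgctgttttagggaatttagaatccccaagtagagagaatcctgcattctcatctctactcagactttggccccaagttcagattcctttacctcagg
Omt2b: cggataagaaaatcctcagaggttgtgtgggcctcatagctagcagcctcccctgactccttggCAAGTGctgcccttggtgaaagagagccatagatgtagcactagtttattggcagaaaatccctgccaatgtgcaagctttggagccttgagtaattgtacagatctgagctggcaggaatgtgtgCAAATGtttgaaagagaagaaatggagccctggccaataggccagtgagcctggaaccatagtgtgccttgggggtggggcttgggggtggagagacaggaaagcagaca
The Omt2a window held 3 such matches and that of Omt2b 2. The motif is common, being present in 72.3% of 32851 start regions of this length, so a match only describes the sequence. Laid side by side without gaps, the windows had the same base at 58 of 300 positions.

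Other genes above every young oocyte had fewer counts. Dcbld1, a membrane protein gene, was at 93.3, 64.0 and 67.6 CPM in NMN oocytes, against 0.21, 1.71 and 5.59 CPM in young oocytes, and the NMN oocytes lay close together (74.97 ± 16.01 against 2.5 ± 2.78 CPM, mean ± SD, n = 3 each, 29.9-fold). Sart1, a factor of the spliceosomal tri-snRNP, was at 46.3, 97.3 and 24.7 CPM in NMN oocytes, against 0, 4.36 and 2.9 CPM in young oocytes (23.2-fold). Setd1b, a methyltransferase of lysine 4 on histone H3, was at 7.51, 37.9 and 24.1 CPM in NMN oocytes and had no count in young oocytes. It was at least 124-fold higher, with 3 counts assumed for the young group, the limit that a count of 0 allows. Setd1b was also without a count in aged 1 and aged 2, and at 0.364 CPM in aged 2-1. Gtsf2, a gametocyte-specific factor gene, was at 17.4, 182 and 38.8 CPM in NMN oocytes, against 0, 11.8 and 2.9 CPM in young oocytes. Pvt1, a long noncoding RNA gene, was at 75.5, 199 and 45.7 CPM in NMN oocytes, against 7.75, 6.08 and 7.04 CPM in young oocytes (15.4-fold).

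Several of the higher genes had their smallest value in NMN 2-1. Vti1b, a SNARE of vesicle fusion, was at 523, 374 and 33.5 CPM in NMN oocytes, against 28.7, 25.2 and 15.9 CPM in young oocytes. Mea1 was at 757, 809 and 187 CPM in NMN oocytes, against 97.2, 59.7 and 34.0 CPM in young oocytes. Ptpn22, a tyrosine phosphatase gene best known from lymphocytes, was at 483, 616 and 179 CPM in NMN oocytes, against 69.3, 12.6 and 38.5 CPM in young oocytes. In each of the 3 the NMN 2-1 value was less than that of NMN 1 and of NMN 2, though still above all young oocytes. Stmn1, which destabilises microtubules, was at 469, 245 and 50.1 CPM in NMN oocytes, against 39.4, 30.2 and 22.6 CPM in young oocytes. Cks2, a partner of cyclin-dependent kinases that mouse oocytes need to leave the first meiotic metaphase, was at 2600.5, 3662 and 546 CPM in NMN oocytes, against 415, 482 and 349 CPM in young oocytes. For Stmn1 and Cks2 the gap between NMN 2-1 and the highest young oocyte was small beside that between the NMN oocytes.

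Robo2, a receptor of Slit proteins, was at 57.4, 143 and 12.2 CPM in NMN oocytes, against 0, 12.0 and 8.7 CPM in young oocytes. The dynactin gene Dctn6 was at 41.1, 121 and 18.5 CPM in NMN oocytes, against 7.96, 9.51 and 9.73 CPM in young oocytes. Dpm2, of dolichol-phosphate mannose synthesis, was at 110.3, 154 and 60.4 CPM in NMN oocytes, against 35.4, 11.5 and 7.04 CPM in young oocytes. In all 3 the groups did not overlap, but for Robo2 NMN 2-1 and young 2 were nearly equal. With NMN 2-1 alone against the 3 young oocytes, Cks2, Vti1b, Stmn1, Mea1, Dpm2, Dctn6 and Robo2 were no longer 4-fold higher. With the deposited TPM in place of scaled CPM, which gave 15 higher genes, Cks2, Vti1b, Stmn1, Dpm2, Dctn6, Robo2, Gtsf2 and Setd1b were no longer in that number. Without NMN 2 the log2 ratio was 1.92 for Cks2 and 1.61 for Dctn6, both short of 4-fold. Of the 50-base words of Stmn1 and Cks2, 36.5 and 29.7% occur in another gene, so their counts are uncertain. Vti1b, Mea1, Dctn6 and Pvt1 overlap a gene on the opposite strand, as do Pdia3, Cct8, Tcp1, Arpc1b, Uqcrc2, Tacc3, Rpl31, Rps2, Sys1, Gapdh, Sirt1, Sirt2 and Sirt3 below, and their reads cannot be told apart since no strand setting is stated.

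**Figure D3:**
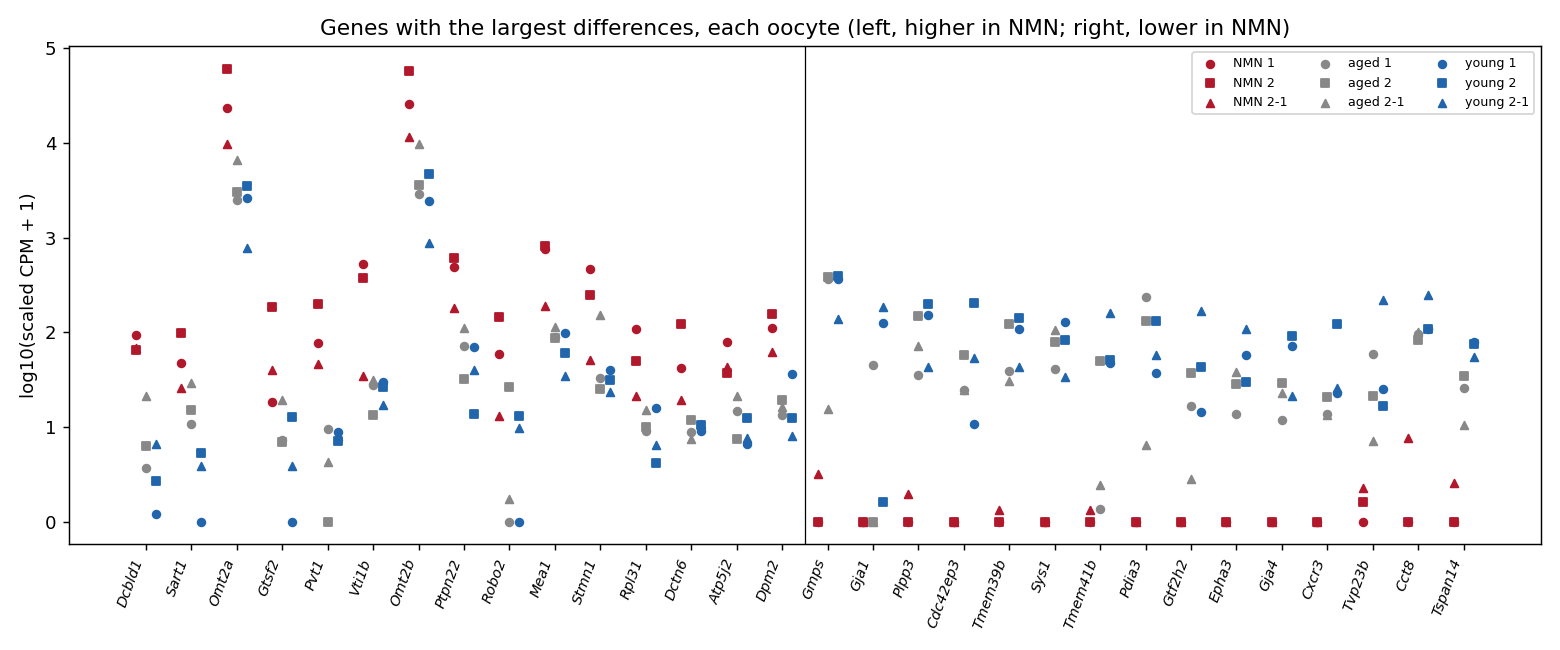
For each of 30 genes, points give log10 of scaled CPM plus 1 in every MII oocyte, with NMN in red, aged in grey and young in blue and the shape giving the oocyte number. The genes are those past the rule with a mean of 50 CPM or more in the higher group, predicted genes and pseudogenes left out. Left of the line are the 15 of these with the largest positive log2 ratios, where every red point lies above every blue one. Right of it are the 15 with the largest negative ones, where most red points lie at 0.

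Transcripts of the most strongly lower genes were almost absent from the NMN oocytes. Gmps, the enzyme that makes GMP (ENSMUSG00000027823, chromosome 3, 63976106 to 64022579), was at 0, 0 and 2.19 CPM in NMN oocytes, against 363, 396 and 138 CPM in young oocytes, 409.8-fold lower. In aged oocytes it was at 368, 382 and 14.6 CPM, so aged 1 and aged 2 stood with the young and aged 2-1 was far below them. Plpp3, a phosphatase of lipid phosphates, had 3 counts in all 3 NMN oocytes, and was at 0, 0 and 0.939 CPM against 149.6, 197 and 41.8 CPM in young oocytes, 414-fold lower with a 95% counting interval of 139 to 1969. Tspan14, a tetraspanin gene, was at 0, 0 and 1.56 CPM in NMN oocytes, against 77.1, 74.8 and 53.8 CPM in young oocytes. All 3 genes lay close to 0 in each NMN oocyte.

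Some single genes of gap junctions and of cell surface receptors were among those with no count in any NMN oocyte. They were taken from the largest differences, and neither class was counted as a whole. Gja4, the connexin that oocytes contribute to the junctions with their cumulus cells (ENSMUSG00000050234, chromosome 4, 127311421 to 127314039), was at 0, 0 and 0 CPM in NMN oocytes, against 69.98, 90.1 and 20.3 CPM in young oocytes, at least 179-fold lower. Gja1, the connexin of cumulus cells and one of the cumulus markers, was at 0, 0 and 0 CPM in NMN oocytes, against 125, 0.623 and 182 CPM in young oocytes, so young 2 was almost without it too. After thinning to equal depth Gja1 no longer met the rule. Markers of cumulus and granulosa cells, with their sums given above, were detected as 2, 0 and 2 of 18 in NMN oocytes and as 4, 10 and 11 of 18 in young oocytes, and their part in the Gja1 result was not tested. The ephrin receptor gene Epha3 was at 0 in NMN oocytes, against 57.2, 28.7 and 106 CPM in young oocytes, at least 191-fold lower. The chemokine receptor gene Cxcr3 was at 0 in NMN oocytes, against 21.8, 122 and 25.1 CPM in young oocytes, at least 168-fold lower. Among membrane trafficking genes, Sys1 of the Golgi was at 0 in NMN oocytes, against 126, 82.6 and 32.7 CPM in young oocytes.

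Genes of protein folding in the endoplasmic reticulum formed the list with the lowest median. This machinery folds, checks and discards secreted and membrane proteins, among them the zona proteins and growth factors of the oocyte. Of 18 kept genes of the unfolded protein response list, 16 had a ratio below 0 and 8 were lower by the rule (44.4%, against 11.3% of all genes), with a median log2 ratio of -2.83 and medians of -4.14, -4.96 and -1.93 in the single NMN oocytes. Summed over the list, transcripts were at 332, 303 and 451 CPM in NMN oocytes, against 1412, 1936 and 2307 CPM in young oocytes and 1239.9, 1132 and 633 CPM in aged oocytes. Every NMN oocyte was thus below every young and every aged oocyte, and NMN 2-1 was here no exception. Atf4, a transcription factor gene, and Eif2ak3, the gene of a kinase upstream of it, were the 2 with a ratio above 0, of 1.96 and 0.08 on the log2 scale, and were named after their values were seen.

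Within that list the lower genes were folding enzymes and factors that discard misfolded proteins. Pdia3, a disulfide isomerase (ENSMUSG00000027248, chromosome 2, 121413775 to 121438687), had no count in any NMN oocyte, against 35.8, 131 and 56.7 CPM in young oocytes, at least 222-fold lower. Sel1l, which holds the ubiquitin ligase of this pathway, was at 0.396, 0 and 1.88 CPM in NMN oocytes, against 16.6, 42.2 and 57.3 CPM in young oocytes. Edem2, a mannosidase that marks misfolded glycoproteins, was at 3.56, 0 and 17.5 CPM in NMN oocytes, against 87.6, 156 and 199 CPM in young oocytes. NMN 2-1 was the highest of the NMN oocytes for Sel1l and Edem2 and still below all young oocytes. From the chaperone list, Dnajc3, a co-chaperone of the same compartment, was at 51.0, 8.39 and 245 CPM in NMN oocytes, against 939, 2677 and 1245 CPM in young oocytes (15.97-fold lower).

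The chaperones and heat shock list had 7 of 24 kept members lower (29.2%, against 11.3% of all genes) and none higher, with a median of -1.32. Cct8 and Tcp1 are subunits of TRiC, the chamber in which actin and tubulin fold. Cct8 was at 0, 0 and 6.57 CPM in NMN oocytes, against 106, 106 and 247 CPM in young oocytes, and Tcp1 was at 0 in NMN oocytes, against 49.2, 21.5 and 21.1 CPM in young oocytes. The sum over the list did not follow the median, being 2595, 1865 and 23424 CPM in NMN oocytes and 7775, 15393 and 10531 CPM in young oocytes. Much of the NMN 2-1 sum was Hsp90aa1, a cytosolic heat shock protein gene, at 1485, 682 and 20092 CPM in NMN oocytes, against 4076, 10237 and 7648 CPM in young oocytes. Of its 50-base words 58.5% occur in another gene, so its count is uncertain.

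In the actin and Arp2/3 list 6 of 24 kept members were lower (25%, against 11.3% of all genes), with a median of -1.14. Actb, the cytoplasmic actin gene, was at 0, 1.24 and 5.01 CPM in NMN oocytes, against 50.9, 96.2 and 134 CPM in young oocytes, 45.0-fold lower, and at 40.9, 15.3 and 18.6 CPM in aged oocytes. Arpc1b, of the Arp2/3 complex that branches actin filaments, was at 0, 119.6 and 144 CPM in NMN oocytes, against 1112, 1746 and 839 CPM in young oocytes. The summed list was at 3494, 2646 and 5315 CPM in NMN oocytes and 6873, 12308 and 10392 CPM in young oocytes, again with no overlap. Of the tubulins, 1 of 13 was lower (7.69%, below the share of all genes), and the median was -1.13.

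**Figure D4:**
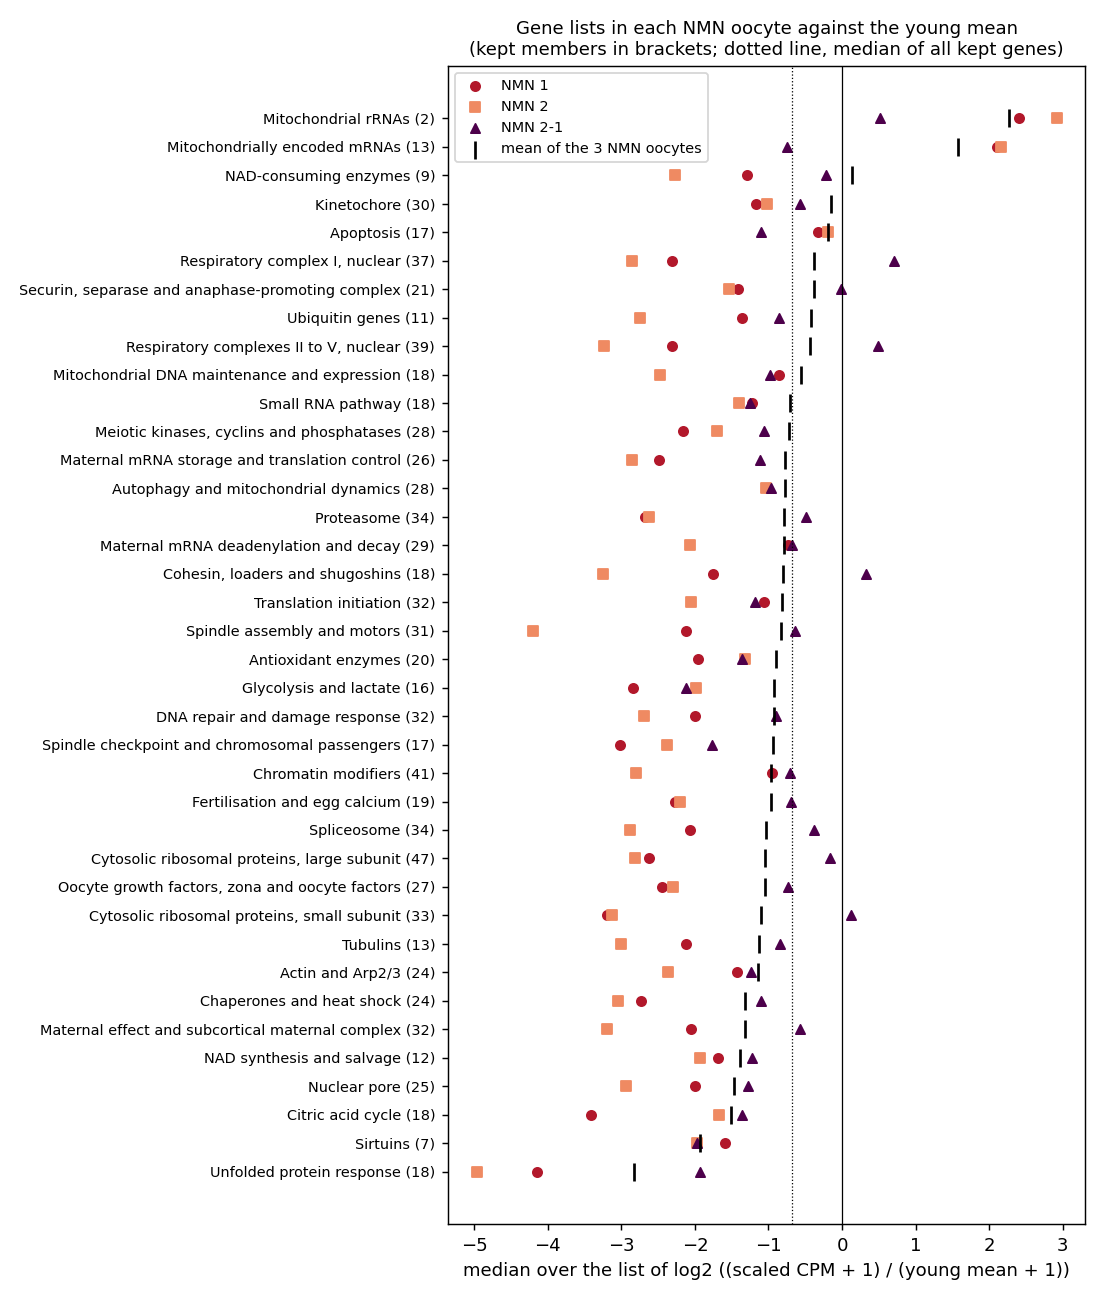
For each of the 38 gene lists, the symbols give the median over the list of the log2 ratio of 1 NMN oocyte to the young mean, and the bar that of the mean of the 3 NMN oocytes, with the solid line at 0 and the dotted line at -0.68, the median of all kept genes. NMN 1 and NMN 2 lie far to the left for most lists, while NMN 2-1 lies near or above 0 for the ribosomal and respiratory lists.

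Genes by which an oocyte is known were next. Of 27 kept oocyte growth factors, zona and oocyte factor genes, 22 had a ratio below 0, against 68.9% of all genes, 5 were lower (18.5%, against 11.3% of all genes), and 2, Omt2a and Omt2b, were higher (median -1.04). The sum over the list did not follow the median. It was 53022, 124780 and 43213 CPM in NMN oocytes and 39029, 70262 and 22969 CPM in young oocytes, and overlapped. Gdf9, a growth factor that the oocyte sends to its cumulus cells (ENSMUSG00000018238, chromosome 11, 53431023 to 53437904), was at 199, 179.9 and 2276 CPM in NMN oocytes, against 3684, 17417 and 4750 CPM in young oocytes (9.74-fold lower). The NMN oocytes stood below all young oocytes, although NMN 2-1, the highest of them, came within 4-fold of the young mean when it was compared alone. Zp3, a structural protein of the zona pellucida around the egg, was at 3.56, 0 and 67.6 CPM in NMN oocytes, against 364, 274 and 157 CPM in young oocytes (11.2-fold lower, and no longer 4-fold with NMN 2-1 alone). Zp1, which links zona filaments, was at 0, 0.311 and 2.82 CPM in NMN oocytes, against 49.0, 30.7 and 40.6 CPM in young oocytes. H1foo, the linker histone of oocytes, was at 385, 409 and 11580 CPM in NMN oocytes and at 21820, 31988 and 3978 CPM in young oocytes, and overlapped.

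Of 32 kept genes of maternal effect and the subcortical maternal complex, proteins that the egg lays down for the embryo, 4 were lower (12.5%, near the 11.3% of all genes) and none higher (median -1.32). Summed, this list was at 14116, 14037 and 45536 CPM in NMN oocytes and 22298, 15851 and 9805 CPM in young oocytes, and overlapped. Padi6, needed for the cytoplasmic lattices of mouse oocytes, was at 0, 6.53 and 10.3 CPM in NMN oocytes, against 181, 201 and 181 CPM in young oocytes and 104, 94.95 and 52.7 CPM in aged oocytes. Its young values were nearly equal, and its ratio of means was 33.4-fold. Dnmt1, the maintenance DNA methyltransferase, was at 0, 1.55 and 249 CPM in NMN oocytes, against 319.7, 1017 and 271 CPM in young oocytes, so NMN 2-1 lay just under the lowest young oocyte. The rule was not met for Dnmt1 without young 2 (log2 ratio -1.81) or with DESeq2 size factors. Dppa3, which protects the maternal genome from demethylation, was at 10543, 8609.9 and 37667 CPM in NMN oocytes and 11349, 4309 and 2039.6 CPM in young oocytes, and overlapped.

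Regulators of the maternal mRNA store were mixed. In the list of storage and translation control 5 of 26 kept members were lower (19.2%, against 11.3% of all genes, median -0.77), and in that of deadenylation and decay 2 of 29 (6.9%, median -0.80). Pabpn1l, the poly(A)-binding protein of eggs that recruits Btg4, was at 0, 0.311 and 186 CPM in NMN oocytes, against 867, 1558 and 453 CPM in young oocytes. Btg4, the adaptor of the CCR4-NOT deadenylase, was at 1446, 10580 and 639 CPM in NMN oocytes and 1430.4, 4046 and 1538 CPM in young oocytes. NMN 2 alone was high for Btg4, and the groups overlapped. Cnot11, a subunit of CCR4-NOT, was at 0, 0 and 32.2 CPM in NMN oocytes, against 51.8, 74.5 and 71.2 CPM in young oocytes, and fell short of 4-fold without NMN 1 or NMN 2 (log2 ratio -1.97 in each case).

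NMN enters NAD metabolism directly, and few transcripts of its enzymes were counted. Of 23 listed genes of NAD synthesis and salvage, 12 passed the filter on low counts, 11 of them with a ratio below 0 and 1 lower by the rule (8.33%, against 11.3% of all genes, median -1.38). Summed, the list was at 157, 126 and 146 CPM in NMN oocytes, against 338, 171 and 271 CPM in young oocytes and 191, 154 and 196 CPM in aged oocytes. Nampt, which makes NMN from nicotinamide (ENSMUSG00000020572, chromosome 12, 32819545 to 32853349), had no count in any NMN oocyte, against 1.89, 3.12 and 7.66 CPM in young oocytes and 2.64, 1.25 and 0 CPM in aged oocytes. Its level was at least 12.6-fold lower, but the young levels were low, at 9, 20 and 37 counts against the floor of 3. With the deposited TPM, or within the oocytes titled without a further number, Nampt was no longer lower by the rule, nor was it without young 2-1 (log2 ratio -1.81).

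Nmnat1, the nuclear enzyme that turns NMN into NAD, was at 1.98, 4.97 and 15.6 CPM in NMN oocytes and 9.01, 20.1 and 19.0 CPM in young oocytes, and overlapped. Nmnat2 of the cytosol was at 0, 0 and 2.5 CPM in NMN oocytes, against 2.72, 4.68 and 4.76 CPM in young oocytes, and Nmnat3 of mitochondria was at 0 in all 6 oocytes but young 2. Nmrk1, which makes NMN from nicotinamide riboside, was at 109, 55.3 and 47.6 CPM in NMN oocytes and 177, 21.7 and 94.8 CPM in young oocytes. None of these 4 genes passed the rule, and only Nmnat2 had groups without overlap.

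The sirtuins, deacylases that use NAD, gave a median of -1.92 over 7 genes, with 2 lower (28.6%, against 11.3% of all genes). Sirt7 of the nucleolus was at 0 in NMN oocytes, against 47.1, 25.1 and 7.25 CPM in young oocytes, at least 79.0-fold lower, and at 9.69, 46.6 and 0 CPM in aged oocytes. The gene overlaps Mafg on the same strand, and reads of the shared part cannot be told apart. Sirt6, a chromatin deacylase, was at 8.31, 0 and 1.25 CPM in NMN oocytes, against 12.99, 11.8 and 31.3 CPM in young oocytes, and was no longer 4-fold lower with DESeq2 size factors. Its log2 ratio was -1.77 without NMN 2, -1.93 without NMN 2-1 and -1.68 without young 2-1. Sirt1 was at 1.58, 1.24 and 2.82 CPM in NMN oocytes, against 12.2, 8.73 and 8.9 CPM in young oocytes, without overlap and just short of the 4-fold rule after 1 CPM was added. Sirt4 of mitochondria, the sirtuin with a ratio above 0, was at 43.5, 112 and 0.313 CPM in NMN oocytes and 4.19, 58.1 and 6.0 CPM in young oocytes, and overlapped. Sirt2, Sirt3 and Sirt5 had no count in NMN oocytes and were at 5.61 CPM or less in young oocytes. Of 9 kept NAD-consuming enzymes, only Parp2 of DNA repair passed the rule, at 0, 0.311 and 11.9 CPM in NMN oocytes, against 23.7, 26.03 and 13.9 CPM in young oocytes, with a log2 ratio of -1.64 without NMN 1, -1.68 without NMN 2 and -1.96 without young 2.

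Transcripts made inside mitochondria stood above the young mean in NMN 1 and NMN 2, and not in NMN 2-1. All 13 mitochondrially encoded mRNAs had a ratio of means above 0 (median 1.58), but only mt-Co2 was higher by the rule, since the medians in NMN 1, NMN 2 and NMN 2-1 were 2.11, 2.17 and -0.75. Summed, they were at 546650, 464380 and 57016 CPM in NMN oocytes and 278860, 42642 and 53806 CPM in young oocytes. NMN 1 and NMN 2 exceeded every young oocyte, young 1 came next, and NMN 2-1 lay with young 2 and young 2-1. The direction therefore rests on NMN 1 and NMN 2, the median being -0.75 with NMN 2-1 alone against the 3 young oocytes and -0.08 within the oocytes titled 2-1.

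The mt-Cytb mRNA, of respiratory complex III, was at 323860, 254710 and 19102 CPM in NMN oocytes and 178260, 21202 and 25215 CPM in young oocytes. The mt-Co2 mRNA, of cytochrome c oxidase, was at 18305, 23766 and 6528 CPM in NMN oocytes, against 5692, 1792 and 1214 CPM in young oocytes (5.59-fold, and short of 4-fold with NMN 2-1 alone or with the deposited TPM). The mitochondrial ribosomal RNA mt-Rnr2 was at 10118, 13577 and 4165 CPM in NMN oocytes, against 3917, 1202 and 812 CPM in young oocytes (4.7-fold), with NMN 2-1 only a little above young 1. Its log2 ratio was 1.85 without NMN 2, 1.97 without young 2 and 1.86 without young 2-1. Nuclear copies of mitochondrial DNA share some of these sequences. Of the 50-base words of mt-Co2 and mt-Atp6, 100.0 and 99.5% occur in another annotated gene. How the counts of mt-Co2 and mt-Atp6 were split between the mitochondrial genes and their nuclear copies is therefore uncertain. For mt-Cytb and mt-Rnr2 the shares were 0 and 1.04%.

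Among nuclear genes for the same respiratory chain 1 was higher. Of 37 kept nuclear genes of complex I, 5 were lower (13.5%) and none higher (median -0.38), and of 39 for complexes II to V, 6 were lower (15.4%) and 1 higher (-0.43), shares near the 11.3% of all genes. Without young 1 both medians turned positive, at 0.56 and 0.68, and without NMN 2 that of complexes II to V was 0.05. The NMN oocytes parted here, with medians of -2.31, -2.86 and 0.70 for complex I and -2.31, -3.24 and 0.49 for complexes II to V in NMN 1, NMN 2 and NMN 2-1. Complex I sums were 729, 1101 and 6355 CPM in NMN oocytes and 4911.5, 1726 and 1021 CPM in young oocytes. In aged oocytes they were 1890, 2007 and 5445 CPM, so aged 2-1 was the highest of its group too. Sums of complexes II to V were also highest in NMN 2-1 and aged 2-1 within their groups. Uqcrc2, of complex III, was at 8.7, 8.7 and 204 CPM in NMN oocytes, against 513, 821 and 848 CPM in young oocytes. Atp5j2, of ATP synthase, was the higher one, at 77.1, 36.0 and 41.9 CPM in NMN oocytes, against 5.66, 11.5 and 6.62 CPM in young oocytes (6.51-fold, and short of the rule with the deposited TPM).

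Ribosomal protein genes divided the NMN oocytes in the same way. Medians of the small subunit list were -3.20, -3.12 and 0.13 in NMN 1, NMN 2 and NMN 2-1, and those of the large subunit list -2.62, -2.81 and -0.17. By the rule 9 of 33 small subunit and 6 of 47 large subunit genes were lower (27.3 and 12.8%, against 11.3% of all genes), and 1, Rpl31, was higher. The sums overlapped. Those of the small subunit were 3481, 3342 and 4621 CPM in NMN oocytes and 4242, 1251.5 and 828 CPM in young oocytes. Much of them was Rps27l, with means of 3113.5 CPM in NMN and 933 CPM in young oocytes. Large subunit sums were 426, 401 and 2629 CPM in NMN oocytes and 3551, 1231 and 677 CPM in young oocytes. In the untreated aged 1, aged 2 and aged 2-1 the small subunit sums were 1634, 1004 and 4003 CPM. Those of the large subunit were 1346, 946 and 2196 CPM, so aged 2-1 was likewise the highest of its group. Rps2 was at 0, 12.4 and 1.56 CPM in NMN oocytes, against 96.8, 54.5 and 38.9 CPM in young oocytes. Rpl31 was at 108, 48.2 and 20.3 CPM in NMN oocytes, against 14.7, 3.12 and 5.38 CPM in young oocytes. Many of these genes have processed pseudogenes of near-identical sequence, and 71.3% of the 50-base words of Rps2 and 32.9% of those of Rpl31 occur in another gene, so their counts are uncertain. Within the oocytes titled 2-1 the medians turned positive, at 1.26 and 0.85.

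Lists of sugar and pyruvate metabolism had medians below that of all kept genes. Mouse oocytes depend on pyruvate from their cumulus cells and burn it in the citric acid cycle. Of 18 kept genes of that cycle, 4 were lower (22.2%, against 11.3% of all genes) and none higher (median -1.51), with sums of 342, 482 and 356 CPM in NMN oocytes and 527, 812 and 1084 CPM in young oocytes. Pdhb, of the pyruvate dehydrogenase complex, was at 0.791, 41.0 and 21.6 CPM in NMN oocytes, against 127, 131 and 132 CPM in young oocytes, which were nearly equal to one another. Sucla2, a subunit of succinyl-CoA synthetase, was at 0.791, 0 and 2.82 CPM in NMN oocytes, against 15.5, 7.95 and 104 CPM in young oocytes. Of 16 kept glycolysis and lactate genes 6 were lower (37.5%). Eno1, the enolase gene, was at 0.396, 0 and 1.88 CPM in NMN oocytes, against 25.4, 53.6 and 17.0 CPM in young oocytes, but 72.2% of its 50-base words occur in another gene. Ldhb, the lactate dehydrogenase gene that holds most of the counts of that list, was at 954, 413 and 10559 CPM in NMN oocytes and 14825, 10118 and 2962 CPM in young oocytes, and overlapped. Gapdh was at 35.6, 3.11 and 17.5 CPM in NMN oocytes and 10.1, 12.8 and 12.0 CPM in young oocytes, and overlapped too.

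In the list of spindle checkpoint and chromosomal passengers of the meiotic divisions 4 of 17 were lower (23.5%, against 11.3% of all genes, median -0.94), among kinetochore genes 2 of 30 (6.67%, median -0.15), among spindle assembly genes and motors 7 of 31 (22.6%, median -0.82) and among cohesin, its loaders and shugoshins 2 of 18 (11.1%, median -0.80). The checkpoint median was 0.14 without young 2, the kinetochore median 0.07 without young 2-1 and 0.18 with DESeq2 size factors, and the cohesin median 0.32 with NMN 2-1 alone, each of the opposite sign. The kinetochore sum was above all young oocytes in every NMN oocyte. It was 3939, 4965 and 3821 CPM in NMN oocytes and 2546, 3391.5 and 3002 CPM in young oocytes. Bub3, a checkpoint protein, was at 0, 98.8 and 121 CPM in NMN oocytes, against 747, 219 and 276 CPM in young oocytes, with a log2 ratio of -1.90 without NMN 1 and -1.74 without young 1. Tacc3, which organises the meiotic spindle poles, was at 0, 3.42 and 23.8 CPM in NMN oocytes, against 159, 233 and 117 CPM in young oocytes (18.7-fold lower). Fbxo5, also called Emi1, an inhibitor of the anaphase-promoting complex, was at 0, 0 and 14.1 CPM in NMN oocytes, against 58.9, 170.5 and 63.6 CPM in young oocytes. NMN 2-1 had the highest of the NMN values in all 3 genes and remained below the young oocytes. Of the meiotic kinases, cyclins and phosphatases, 3 of 28 were lower (10.7%) and 1, Cks2, was higher. Pttg1, the securin that holds separase in check, was at 16229, 8815 and 5773 CPM in NMN oocytes and 7094, 3718 and 1377 CPM in young oocytes, and overlapped.

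Defence against oxidation and DNA damage gave 5 of 20 and 6 of 32 kept members lower (25 and 18.8%, against 11.3% of all genes), with medians of -0.89 and -0.93, against -0.68 for all genes. Glrx, a glutaredoxin, was at 0, 0.311 and 30.7 CPM in NMN oocytes, against 234, 126 and 145 CPM in young oocytes. Sod1, the cytosolic superoxide dismutase, was at 17.4, 12.4 and 52.6 CPM in NMN oocytes, against 222, 57.7 and 138 CPM in young oocytes, and was no longer 4-fold lower with DESeq2 size factors. Its log2 ratio was -1.96 without NMN 2 and -1.80 without young 1. Lig4, the ligase of end joining, had 2 counts in NMN oocytes, at 0.791, 0 and 0 CPM, against 11.7, 56.0 and 55.7 CPM in young oocytes, 156-fold lower with a 95% counting interval of 52.6 to 1580.

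Ratios also differed with the length of the transcript, and not in the same way in each NMN oocyte. The 10752 kept nuclear protein-coding genes were put into 5 groups of nearly equal size by their longest annotated transcript. In NMN 2 the median log2 ratio to the young mean was -1.01 for the shortest of them (373 to 1883 bases) and -2.31 for the longest (5322 bases and over), with values between them in order. In NMN 1 the 5 medians ran from -1.51 to -1.25 with no order, and in NMN 2-1 the shortest group stood at -0.59 and the others at -1.13 to -0.95. Young levels were alike across these groups, with median means of 9.17 to 12.1 CPM. Among genes at 100 CPM or more over the 6 oocytes, NMN 2 had medians of -0.03 in the shortest and -2.17 in the longest group. There NMN 1 stood at -0.48 in the shortest group and at -1.10 to -0.64 in the others. NMN 2-1 stood at 0.09 in the shortest and at -0.74 to -0.26 in the others. The shortest group was thus the highest in each NMN oocyte at this level. The 34 higher genes of this kind had a median length of 2470 bases and the 1310 lower ones 3145 bases, against 3364 bases for all. The part of RNA length or quality in the results above was not tested.

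**Figure D5:**
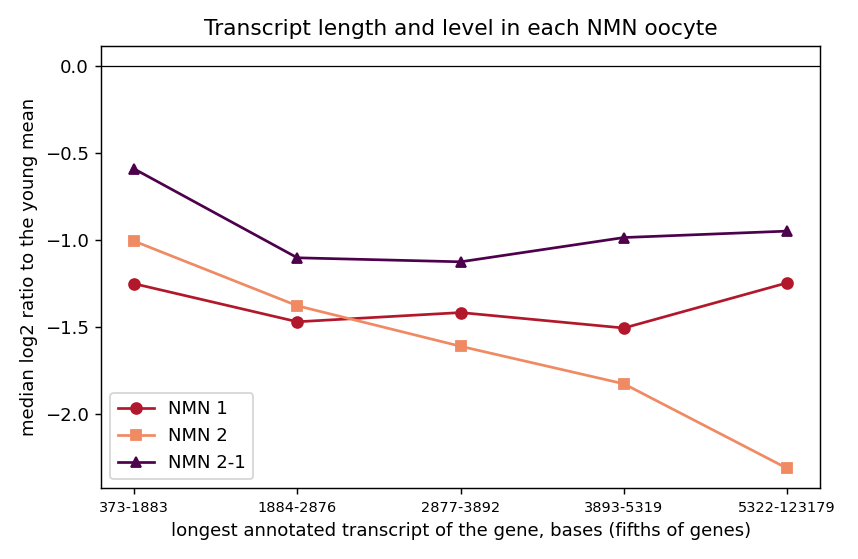
Lines give, for each NMN oocyte, the median log2 ratio to the young mean in 5 groups of genes ordered by the length in bases of the longest annotated transcript. The line of NMN 2 stands at -1.01 for the shortest and -2.31 for the longest group, while that of NMN 1 begins and ends at -1.25 and that of NMN 2-1 runs between -1.13 and -0.59.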

How the data were processed

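RNA sequencing was made on single oocytes, and 18 libraries were used as labelled, 6 of them in the comparison. The authors deposited expected counts and TPM per gene, per the file headers. The submitters' processing notes name TopHat2 2.1.1, Trim Galore 0.4.5, Cufflinks and FastQC 0.11.8, and as builds GRCm38 and mm10. The tool that made the counts is not given in the sources used here. Expected counts were rounded to whole numbers. A library identical to another and one of 5009 counts were left out of the scaling, which used the other 16. Of 47069 gene IDs, 46574 matched GENCODE release 21 of the mouse.

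Genes were kept with filterByExpr at a minimum of 10 counts and scaled by TMM in edgeR 4.0.16 (R 4.3.3), and 1 CPM was added before log2 ratios were taken. DESeq2 1.42.0 gave alternative size factors. Groups were compared with no test, since oocytes of unnamed animals are cells and not replicates. A fold is the ratio of mean scaled CPM, with 3 counts assumed as the floor of a group that had none. Intervals (95%) and floors cover counting error only.

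Genes were named by these rules: up to 15 past the rule with the largest log2 ratios in each direction and a mean of 50 CPM in the higher group, up to 3 past the rule from each list at 10 CPM, the 10 most abundant in each NMN oocyte, up to 5 at 100 CPM or more that stood highest in 1 NMN oocyte over the other oocytes, and a set list (Gdf9, Zp3, Btg4, Gapdh, Actb, the sirtuins, Nampt and the Nmnat and Nmrk1 genes). Only some of these are described. Predicted genes and pseudogenes were counted, not named. The oocytes and the 38 lists were chosen with earlier results of these data known.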

Additional observations from a re-analysis of the deposited data

How the results depend on the processing

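Against 52 higher genes, 85 passed with DESeq2 size factors, 15 with the deposited TPM, 349 within titles without a further batch number and 1021 within titles 2-1. With the NMN oocyte titled batch 2 placed in batch 2, 461 passed within batch 2 and 682 within batch 1. Chosen after seeing the data, NMN 2-1 alone against the young oocytes gave 505, and a mean of 100 CPM gave 15. Leaving out 1 oocyte gave 71 to 302. Against 1371 lower genes, the same settings within titles gave 2811, 3318, 2918 and 3351, NMN 2-1 alone gave 2254 and a mean of 100 CPM 83. Adding 5 CPM gave 569, a mean of 10 CPM in the higher group 883, and leaving out 1 oocyte 1508 to 2744. Fewer oocytes make overlap less likely by construction.

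The median of -0.68 was -1.04 with the deposited TPM, -0.33 with 5 CPM added, -1.05 within batch 1 of that reading, -0.22 at 100 CPM and -1.07 to -0.47 without 1 oocyte. Of 38 lists, 35 had a median below 0, against 33 to 36 without 1 oocyte. At 100 CPM 23 had one below 0. Lists with no gene left at that level, such as the sirtuins, were not counted there. The 23 are therefore out of fewer lists, and the fall from 35 is not only a change of sign. Genes detected averaged 5414 in NMN oocytes at a minimum of 5 counts, against 6616 at 1.

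Medians of 17 lists changed sign in at least 1 setting, and of 7 lists when 1 oocyte was left out, most of these with a reported median under 1 in size, and the cause was not tested. With NMN 2-1 alone those of complex I, complexes II to V and cohesin were 0.70, 0.49 and 0.32. Those of lists with a reported median of at least 1 in size were as follows. Within titles 2-1 they were -0.0829 for mitochondrially encoded mRNAs, 0.85 and 1.26 for large and small ribosomal subunits and 0.0506 for the spliceosome. Within batch 2 as read above they were 0.47 and 0.45 for the large and small subunits. With NMN 2-1 alone they were -0.75 for mitochondrially encoded mRNAs and 0.13 for the small subunit. At 100 CPM they were 0.72 for the small subunit, 0.16 for tubulins and 0.14 for the spliceosome. Of the named genes, 55 lost their call under at least 1 setting and none changed sign while called.

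No paired analysis was possible because the results come from no test. Genes near the floor of 3 counts, 0.932 to 1.19 CPM in NMN oocytes and 0.468 to 0.629 CPM in young oocytes, could not be told from absent ones.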

Other observations

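Some transcripts marked a single NMN oocyte. NMN 2-1 was rich in Sub1, a transcription coactivator gene, at 509, 592 and 46063 CPM in NMN oocytes and 7686, 2129.5 and 979 CPM in young oocytes. The untreated aged 2-1 oocyte was likewise high, at 26998 CPM, while aged 1 and aged 2 were at 5016 and 4878 CPM. Across all kept genes NMN 2-1 had its highest Spearman's rho, 0.780, with aged 2-1.

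NMN 2 held 1.98, 108 and 0.939 CPM of Mael, a piRNA pathway gene, across NMN 1, NMN 2 and NMN 2-1, against 0.21, 4.21 and 5.59 CPM in young oocytes. The zinc finger gene Zfp69 was at 5.14, 198 and 15.96 CPM in NMN oocytes and 0, 3.9 and 21.5 CPM in young oocytes, and Rhobtb3 at 0, 141 and 0 CPM in NMN oocytes and 0, 7.33 and 4.35 CPM in young oocytes. NMN 2 also held haemoglobin transcripts, at 29.8 CPM summed over erythroid markers, against 0 in the other NMN oocytes and at most 0.21 CPM in young oocytes. NMN 1 was highest in Srrm1, a splicing factor gene, at 1833, 72.7 and 431 CPM in NMN oocytes and 78.2, 421 and 220.3 CPM in young oocytes.

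Gm10925, an annotated pseudogene on chromosome 1 named after its values were seen, was at 30617, 24870 and 9136 CPM in NMN oocytes, against 842, 0.156 and 0 CPM in young oocytes and 203, 299 and 9475 CPM in aged oocytes. All of its 50-base words occur in mt-Atp6, and reads of the 2 genes cannot be told apart.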
